A study of Mus musculus with 6 samples.

Results

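A set of 10 genes of peroxide and superoxide defence in mouse liver were followed: the peroxiredoxins Prdx1 to Prdx6, catalase (Cat), the mitochondrial superoxide dismutase Sod2, thioredoxin (Txn1) and glutaredoxin (Glrx). They were chosen by name, and every probe set whose platform symbol was one of these members was taken. Of the 11811 probe sets in the table, 13 carried the symbol of a single member, and these covered 7 genes: Txn1, Prdx2, Glrx, Prdx4, Sod2, Prdx3 and Cat. A further 5 probe sets were annotated to Prdx1 together with Gm21399, a Prdx1-like pseudogene, so they are given apart and cannot be read as Prdx1 alone. Prdx5 and Prdx6 were not analysed here. All 18 of these probe sets passed the filter on low signal.

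The arrays measured total RNA of whole liver from mice labelled as lacking Atp7b, the copper-transporting ATPase lost in Wilson disease (KO903, KO904 and KO905), and from mice labelled wild type (WT4, WT5 and WT6), with 1 Affymetrix array per sample and 3 samples per group. The labels refer to an earlier publication for the knockout mouse and give neither strain, sex, age, diet nor treatment for either group; the series title places the livers early in copper accumulation. The comparison asks which transcripts of this defence system differ without Atp7b. The values are MAS 5.0 signals, which are arbitrary brightness units on a linear scale and do not allow the level of one probe set to be set against another. In whole liver, fewer cells of a type and less RNA per cell cannot be told apart.

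Superoxide leaking from the respiratory chain is turned into hydrogen peroxide by Sod2 in the mitochondrial matrix. Peroxiredoxins then reduce peroxides with a reactive cysteine, and most of them are recycled by thioredoxin, which draws its electrons from NADPH through thioredoxin reductase; Glrx removes glutathione from protein thiols. Each compartment has its own set: Prdx1, Prdx2, Prdx6, Txn1 and Glrx in the cytosol, Prdx3 with Sod2 in mitochondria, Prdx4 in the endoplasmic reticulum (ER), Cat in peroxisomes, and Prdx5 in mitochondria and peroxisomes. Liver is rich in catalase, and copper ions can promote the formation of oxygen radicals.

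None of the 13 probe sets passed the test (limma, adjusted p below 0.05, two-sided), while 4.14% of all 10620 tested probe sets did. At an unadjusted p below 0.05 there were 2 of 13, Prdx4 and Prdx2, against a background of 17.9%. The knockout and wild-type samples did not overlap in 4 probe sets, 3 with the knockout above (one each of Prdx4, Prdx2 and Txn1) and 1 with it below (Sod2); over all tested probe sets those shares were 13.2% and 10.4%. The counts of calls and of separated groups in so few probe sets thus lay near the background. The differences themselves were small: the median size was 0.16 on the log2 scale over the 13 probe sets and also 0.16 over all tested ones. Taking only the brightest probe set of each of the 7 genes, the median size was 0.23.

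By compartment, the brightest probe sets of the 3 cytosolic genes and of Prdx4 in the ER had knockout means above wild type, and those of the mitochondrial genes and Cat had them below. The median log2 difference, knockout minus wild type, was 0.23 for the cytosolic genes Txn1, Prdx2 and Glrx, 0.36 for Prdx4, -0.20 for the mitochondrial genes Sod2 and Prdx3, and -0.15 for Cat. The median of all tested probe sets was 0.03, and its quartiles were -0.13 and 0.18. These medians rest on 1 to 3 genes each, they carry no test, and a difference between compartments was not tested.

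**Figure D1:**
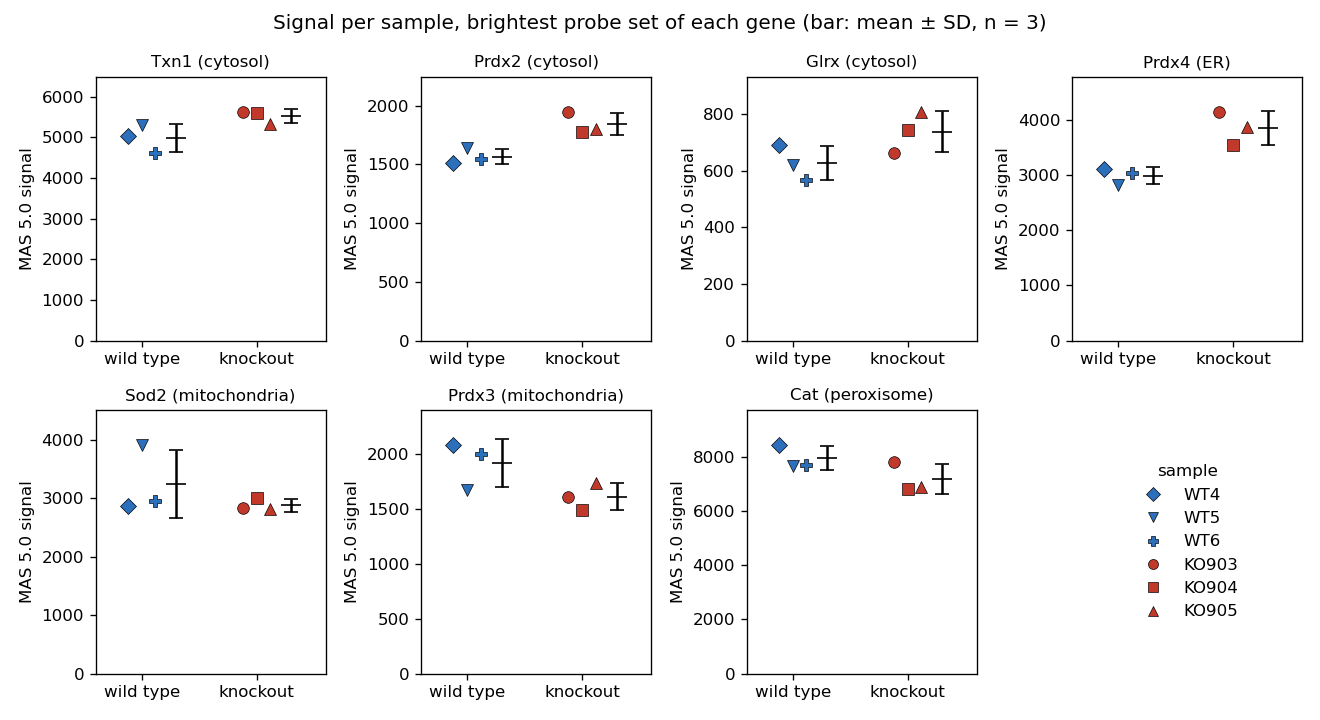
MAS 5.0 signal (vertical axis, starting at 0) in each of the 3 wild-type and 3 knockout livers for the brightest probe set of each of the 7 genes, with the mean ± SD beside each group. The groups are apart for Txn1, Prdx2 and Prdx4, with the knockout above, and overlap for Glrx, Sod2, Prdx3 and Cat.

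Prdx4, the peroxiredoxin of the secretory pathway, passes the oxidising power of hydrogen peroxide on to protein disulfide isomerases during protein folding. On its brightest probe set (1416167_at) the signal was 4159.6, 3549.8 and 3875.0 in KO903, KO904 and KO905, and 3124.2, 2817.8 and 3040.6 in WT4, WT5 and WT6. All knockout livers were above all wild-type livers, with the lowest knockout value in KO904 and the lowest wild-type value in WT5. The means were 3861 ± 305 and 2994 ± 158 (SD, n = 3 each), a 1.29-fold difference (log2 0.36 ± 0.10, SE; 95% interval 0.14 to 0.59), and its adjusted p in limma was 0.0765. This was the smallest adjusted p among the members. After quantile normalization of the arrays it was 0.0425 (log2 0.41), and at a threshold of 0.10 it passed as well; no other alternative called a member.

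The other Prdx4 probe sets showed less. Probe set 1435731_x_at, of a kind that may also bind other transcripts, gave 717.5, 614.9 and 614.5 in the knockout and 725.3, 511.5 and 639.9 in wild type (KO903 to KO905 and WT4 to WT6, in that order), a log2 difference of 0.06 ± 0.15 (SE; limma adjusted p = 0.873). Probe set 1416166_a_at gave 358.7, 274.6 and 350.2 in the knockout and 355.7, 208.2 and 331.2 in wild type (log2 0.15 ± 0.20, SE; limma adjusted p = 0.752). On both, the groups overlapped and WT5 was the lowest sample, and without WT5 both differences were below 0 (log2 -0.07 for each). The mean over the 3 probe sets gave a log2 difference of 0.19 for the gene.

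Prdx2, a cytosolic peroxiredoxin that is also abundant in red blood cells, was read by 1 probe set (1418506_a_at). Its signal was 1948.9, 1775.7 and 1797.9 in KO903, KO904 and KO905 and 1512.7, 1635.8 and 1541.2 in WT4, WT5 and WT6. The groups did not overlap, KO903 was highest, and the wild-type samples lay close together. The means were 1841 ± 94.2 and 1563 ± 64.4 (SD, n = 3 each), a 1.18-fold difference (log2 0.23 ± 0.10, SE; 95% interval 0.01 to 0.46; limma adjusted p = 0.267). Of the 10 erythroid markers listed, 2 could be read: Alas2, the erythroid enzyme that starts heme synthesis, had signals of 894.0, 834.9 and 714.0 in the knockout and 377.2, 417.7 and 398.8 in wild type and passed the test as higher (limma adjusted p = 0.00183), while the mitochondrial iron importer gene Slc25a37 did not (log2 -0.23, limma adjusted p = 0.517). Their summed signal was 924.2 to 1131.5 in the knockout and 644.2 to 706.7 in wild type. That difference came from Alas2 alone, as the mean of Slc25a37 was lower in the knockout, so the sum does not measure red cells. The globin genes were not analysed here, and the part of red cells in the Prdx2 values was not tested.

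Txn1, the small disulfide reductase that recycles the cytosolic peroxiredoxins, gave 5632.2, 5606.2 and 5328.2 in the knockout livers and 5022.8, 5293.2 and 4611.4 in WT4, WT5 and WT6. The lowest knockout value, in KO905, was just above the highest wild-type value, in WT5. The means were 5522 ± 169 and 4976 ± 343 (SD, n = 3 each), or 1.11-fold (log2 0.15 ± 0.09, SE; 95% interval -0.06 to 0.36; limma adjusted p = 0.447).

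Glrx, the cytosolic glutaredoxin, was read by 2 probe sets with nearly the same difference. On the brighter (1416593_at) the signal was 664.0, 742.6 and 809.5 in KO903, KO904 and KO905 and 690.5, 622.0 and 568.8 in WT4, WT5 and WT6, with KO903 below WT4 (log2 0.23 ± 0.13, SE; limma adjusted p = 0.390). On the other (1416592_at) KO903 at 467.6 lay below WT4 and WT5 at 548.6 and 538.1, while KO904 and KO905 were at 686.3 and 673.8 and WT6 at 441.2 (log2 0.24 ± 0.17, SE; limma adjusted p = 0.505). On both probe sets the groups overlapped through the same knockout sample, KO903, and the coefficient of variation in the knockout was 9.86% and 20.2%.

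Prdx1, a cytosolic peroxiredoxin and a textbook target of the oxidative stress factor NRF2, could be followed only through the 5 probe sets shared with Gm21399. The promoters in the RefSeq table (GRCm38.p6, 250 bases before to 50 after the start) cover 9 of the 10 members, and of these genes 1, Prdx1, holds the core of the antioxidant response element, TGACNNNGC, searched on both strands as the only motif. Of all 32851 promoters listed there, 12.4% hold it. The stretch around the match is shown so that its letters can be read beside the signals; it lies at chr4:116685440-116685500 on the plus strand, it is given 5′ to 3′, and the capitals mark the core as read on the opposite strand. A match is a description of these letters and not a binding site.
Prdx1 promoter: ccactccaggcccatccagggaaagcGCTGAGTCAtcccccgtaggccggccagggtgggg
The brightest shared probe set (1416000_a_at) gave 13758.8, 15293.3 and 12503.9 in the knockout and 11238.9, 12714.4 and 12291.1 in wild type (log2 0.19 ± 0.10, SE; limma adjusted p = 0.337), with KO905 below WT5. The others had log2 differences of 0.00 to 0.06, and none of the 5 was called or separated the groups. Probe set 1434731_x_at varied most, from 7519.0 in WT4 to 14150.1 in WT5, a wild-type coefficient of variation of 32.7%.

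**Figure D2:**
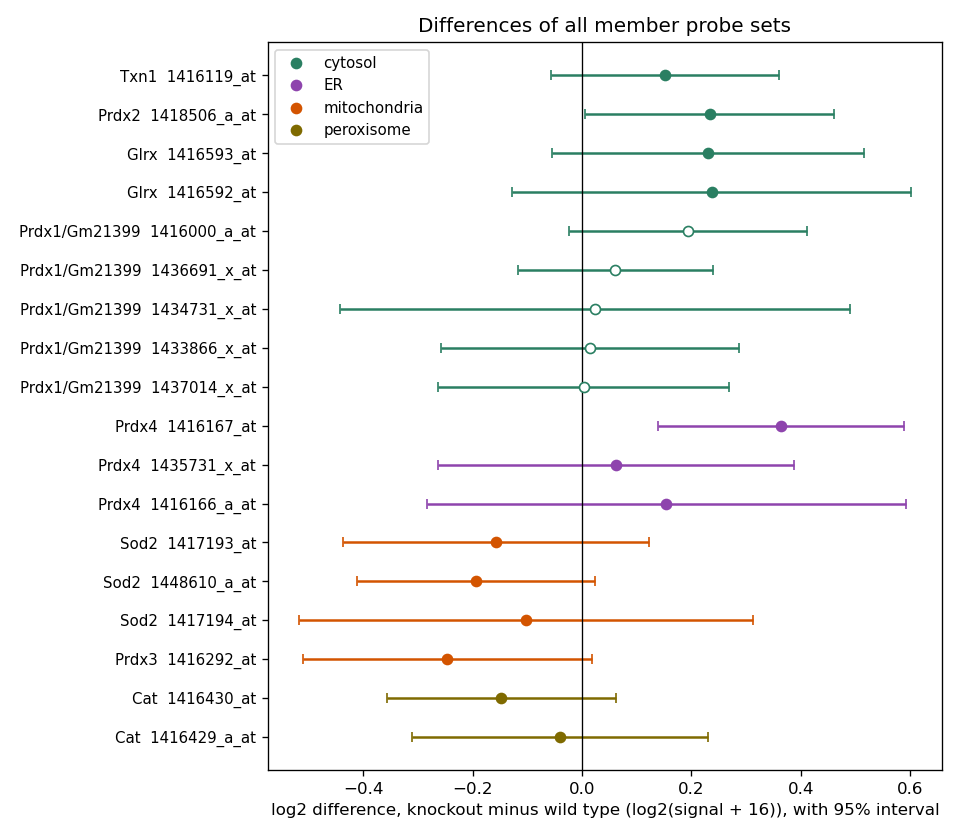
Log2 difference between knockout and wild type (horizontal axis, on log2(signal + 16)) with its 95% interval from limma for each of the 13 member probe sets (filled) and the 5 shared by Prdx1 and Gm21399 (open), coloured by compartment. The intervals of Prdx4 1416167_at and Prdx2 lie above 0; all others include 0.

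In mitochondria, Sod2 was read by 3 probe sets, all with knockout means below wild type. Probe set 1448610_a_at gave 2357.9, 2408.9 and 2281.3 in KO903, KO904 and KO905 and 2517.7, 2811.1 and 2747.7 in WT4, WT5 and WT6, so every knockout value was below every wild-type value. The means were 2349 ± 64.2 and 2692 ± 154 (SD, n = 3 each; log2 -0.19 ± 0.10, SE; limma adjusted p = 0.339). The brightest probe set (1417193_at) gave 2831.1, 3014.6 and 2812.0 in the knockout and 2869.0, 3922.0 and 2962.7 in wild type. Here WT5 stood far above the rest, the groups overlapped, and the log2 difference was -0.16 ± 0.13 (SE; limma adjusted p = 0.576), or -0.02 without WT5. The dimmest probe set (1417194_at) gave signals between 154.8 and 240.4, both from the knockout, and a log2 difference of -0.10 ± 0.19 (SE; limma adjusted p = 0.834).

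Prdx3, the mitochondrial peroxiredoxin that removes most of the hydrogen peroxide Sod2 makes, had signals of 1606.6, 1486.8 and 1732.8 in the knockout and 2084.7, 1668.2 and 1994.9 in WT4, WT5 and WT6. Of the wild-type samples, WT5 alone lay within the range of the knockout samples. The means were 1609 ± 123 and 1916 ± 219 (SD, n = 3 each), 1.19-fold higher in wild type (log2 difference of knockout minus wild type -0.25 ± 0.12, SE; 95% interval -0.51 to 0.02; limma adjusted p = 0.316). WT5 was thus the highest wild-type sample for Sod2 and the lowest for Prdx3.

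Cat, which breaks hydrogen peroxide down to water and oxygen inside peroxisomes, was read by 2 probe sets. On the brighter (1416430_at) the signal was 7828.5, 6830.7 and 6912.2 in KO903, KO904 and KO905 and 8467.3, 7679.4 and 7729.1 in WT4, WT5 and WT6. KO903 lay within the wild-type range and the other knockout samples below it (log2 -0.15 ± 0.10, SE; limma adjusted p = 0.467). On the other (1416429_a_at) the knockout samples, at 5286.3, 5197.2 and 5634.7, lay between WT5 at 4742.2 and WT4 at 6638.8, with WT6 at 5343.3. That log2 difference was -0.04 ± 0.12 (SE; limma adjusted p = 0.904), and without WT4 it was 0.09. The 95% interval of the brighter probe set ran from -0.36 to 0.06 on the log2 scale.

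Around these genes, 59 of 77 listed genes of the same redox system could be tested, each on its brightest probe set. Of them 1 was called, against 4.14% of all tested probe sets: Xdh, which was lower in the knockout. At an unadjusted p below 0.05 there were 13 of 59, against the 17.9% of all tested probe sets, and the median log2 difference was 0.02. Xdh, xanthine dehydrogenase of purine breakdown, was placed among the peroxisomal oxidases, although most of the enzyme is known to be cytosolic. Its signal was 357.0, 370.2 and 339.0 in the knockout and 789.9, 741.0 and 677.1 in wild type. Every knockout sample was far below every wild-type sample (means 355 ± 15.7 and 736 ± 56.6, SD, n = 3 each; log2 -1.02 ± 0.12, SE; limma adjusted p = 0.00129).

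In the thioredoxin and glutaredoxin systems, 10 of 14 listed genes were tested and none was called (median log2 0.03). Of the 10, 1 had an unadjusted p below 0.05, against 17.9% over all tested probe sets. That one was Gsr, glutathione reductase, which keeps the electron supply of Glrx going. Its signal was 1360.2, 1634.4 and 1370.6 in the knockout and 926.9, 1181.1 and 876.3 in wild type, with no overlap (means 1455 ± 155 and 995 ± 163, SD, n = 3 each; log2 0.55 ± 0.14, SE; limma adjusted p = 0.0533). Of 15 alternatives for this probe set, 4 called Gsr: a minimum signal of 200 (limma adjusted p = 0.0480), robust eBayes (0.0499), array weights (0.0294) and leaving out WT5 (0.0152). It was not called after quantile normalization (0.0622) or without the trend (0.0891). Leaving out any 1 of the other samples gave 0.109 (KO903) to 0.191 (KO904), also not called. Gsr passed at a threshold of 0.10 and as the mean over its probe sets (0.0200). Txnrd1, the cytosolic thioredoxin reductase that serves Txn1, had a log2 difference of 0.14 (limma adjusted p = 0.588), and its mitochondrial counterpart Txnrd2 one of 0.18 (0.528). Txn2, the mitochondrial thioredoxin that recycles Prdx3, had a log2 difference of -0.20 (0.450), or 0.00 on its probe set 1421557_x_at. Srxn1, which repairs over-oxidised peroxiredoxins, had one of 0.31 (0.487) on its brightest probe set (1451680_at), where the groups overlapped. Another Srxn1 probe set (1426875_s_at) went the opposite way, with every knockout value below every wild-type value (log2 -0.37, unadjusted p = 0.0450; limma adjusted p = 0.267), and the dimmest had a log2 difference of 0.28. The thioredoxin inhibitor Txnip had a log2 difference of -0.47 (0.353) on its brighter probe set and -0.39 (0.641) on the other. On the brighter, wild type varied widely, with 1657.2, 1007.0 and 2477.8 in WT4, WT5 and WT6 (coefficient of variation 43.0%). WT5 lay below all knockout samples (1139.4 to 1180.4). Without WT5 the log2 difference was -0.80 (limma adjusted p = 0.0188), and no other alternative called Txnip.

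Of the superoxide dismutases outside mitochondria and their chaperone, 3 genes were tested and none was called: the cytosolic Sod1 had a log2 difference of -0.04 (0.21 on its probe set 1435304_at), its copper chaperone Ccs 0.02, and the extracellular Sod3 0.45 ± 0.13 (SE; limma adjusted p = 0.0774). Sod3 gave 505.0, 535.9 and 538.2 in the knockout and 408.7, 396.6 and 340.4 in wild type, without overlap. Among the glutathione peroxidases, which share hydrogen peroxide with the peroxiredoxins, 3 genes were tested and none was called. The selenium-dependent Gpx1 and Gpx4 showed nearly equal means, with log2 differences of 0.01 ± 0.10 and 0.00 ± 0.12 (SE). The dim Gpx7 had the smallest p of the 3 tested (log2 0.20, limma adjusted p = 0.681). Among 3 methionine sulfoxide reductases none was called, with the smallest p for Msrb2 (log2 0.20, limma adjusted p = 0.517).

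For the ER, 13 of 15 genes of oxidative folding were tested beside Prdx4, and none was called (median log2 0.01). Of the 13, 4 had an unadjusted p below 0.05, against 17.9% over all tested probe sets. On the brightest probe sets, the smallest p was that of Txndc12, an ER thioredoxin-like protein (log2 0.39 ± 0.15, SE, limma adjusted p = 0.210). The dimmer Qsox1 probe set (1420832_at) had a smaller one, with every knockout value below every wild-type value (log2 -0.33, limma adjusted p = 0.112). On the brighter Qsox1 probe set (1420831_at) the groups overlapped (log2 -0.04). The other brightest probe sets at an unadjusted p below 0.05 went both ways: Pdia6 was higher in the knockout (log2 0.31), and Ero1a (-0.36) and Erp29 (-0.40) were lower. The groups overlapped for Ero1a, whose other probe sets had log2 differences of -0.18 (1419030_at) and 0.08 (1419029_at). For the peroxisome, the 6 other oxidases tested beside Xdh were not called. Of the 7 tested oxidases, 4 had an unadjusted p below 0.05 (17.9% over all tested probe sets). They went both ways, with Xdh and Uox lower and Acox2 and Hao2 higher in the knockout. Uox had a log2 difference of -0.27, Acox2 0.28 and Hao2 0.38, and without WT5 Acox2 was called (log2 0.40, adjusted p = 0.0475). Also not called were the 15 tested of 19 genes of peroxisome import and membrane (median log2 0.02). Of the 15, 3 had an unadjusted p below 0.05 (17.9% over all tested probe sets). Pex19, the carrier of peroxisomal membrane proteins, had the smallest p there, with 831.9, 881.3 and 889.4 in the knockout and 702.6, 649.4 and 646.2 in wild type (log2 0.37 ± 0.11, SE; limma adjusted p = 0.0958); the mean over its probe sets was called (log2 0.44, adjusted p = 0.0493). Of the enzymes that supply NADPH, 5 of 6 were tested and none was called, the smallest p being that of mitochondrial Idh2 (log2 0.24, limma adjusted p = 0.340).

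**Figure D3:**
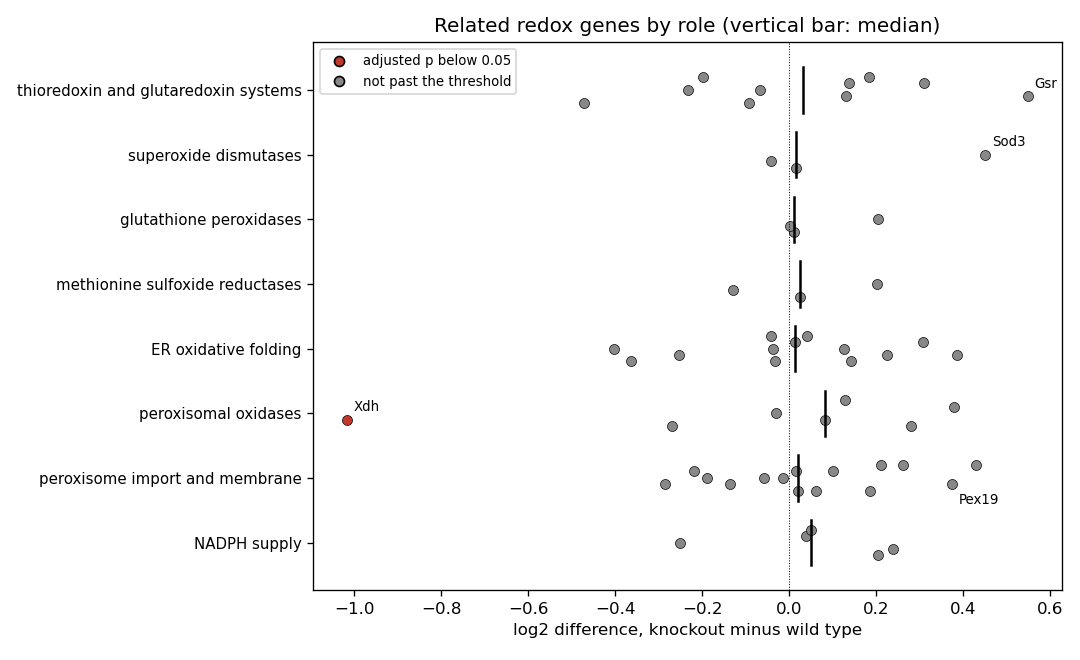
Log2 difference between knockout and wild type (horizontal axis) of the 59 tested related genes, 1 point per gene, arranged by role, with the median of each role as a vertical bar. Xdh at -1.02 is the one gene past the threshold; Gsr, Sod3 and Pex19 are labelled at 0.55, 0.45 and 0.37.

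The arrays and tissue were checked with values common to all genes. Array medians were 330.8 to 342.8, and 3′ to 5′ signal ratios were 1.10 to 1.47 for actin and 0.815 to 0.990 for Gapdh. Of 8 hepatocyte markers listed, 7 were tested and none was called, with summed signals of 116009 to 133302 in the knockout and 124358 to 153169 in wild type. The 9 markers of Kupffer cells and macrophages in the table summed to 6142 to 8248 in the knockout and 4446 to 6239 in wild type. None was called, but all 9 had knockout means above wild type. The unadjusted p in limma was below 0.05 for Lyz2, Cd5l, Clec4f and C1qb (17.9% over all tested probe sets). Lyz2 (log2 0.73, limma adjusted p = 0.0674) and C1qb (log2 0.38, limma adjusted p = 0.225) separated the groups. Over all tested probe sets, 13.2% did so with the knockout above. The part of macrophages in the member values was not tested. Of the other cell types, no marker was called among 1 of 6 listed for neutrophils, 2 of 8 for lymphocytes, 6 of 7 for endothelial cells and 4 of 8 for stellate cells, and those of cholangiocytes were not analysed here. The summed signal did not overlap between groups for the endothelial markers (2561 to 2976 in the knockout, 2136 to 2520 in wild type) and the lymphocyte markers (312 to 332 and 233 to 295). Of the 6 endothelial markers, Clec4g alone separated the groups, while both lymphocyte markers did, each with the knockout above (13.2% over all tested probe sets). The lymphocyte markers, Ptprc and Ms4a1, were dim, with mean signals of 159 and 129. Such sums are led by their brightest probe sets and do not count cells. The part of these cells in the member values was not tested. The Atp7b probe set had a mean of 267 ± 30.1 for wild type and 219 ± 29.9 for the knockout (SD, n = 3 each; limma adjusted p = 0.407), and its place relative to the disrupted part was not examined, so the genotypes were not checked by it.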

How the data were processed

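Per the labels, the authors' intensity values are MAS 5.0 signals on a linear scale, with every array brought to an average of 350 by 1 global factor; the sources used here do not say how the table's probe sets were chosen. MAS 5.0 subtracts mismatch signal, so dim probe sets are noisy. From these values, log2(signal + 16) was fitted with limma 3.58.1 in R 4.3.3 (lmFit, eBayes with an intensity trend) over all 6 samples, with Benjamini-Hochberg adjustment over 10620 probe sets; 33 controls and 1158 with a mean signal under 100 were left out. The pseudocount understates differences of dim probe sets. Errors marked SE are limma's. No exact permutation test of 3 against 3 samples can go below 0.1. Arrays have no sequencing depth, and their number limits the precision. Nothing states that samples are separate animals, so p-values describe only the sample-to-sample spread, which may be technical; at most 0.0847% of values were identical between arrays. The numbers in the sample names do not match between groups, so samples were not paired. Symbols came from the platform annotation and RefSeq identifiers (GRCm38.p6); a probe set with several symbols was not named for 1 of them. The brightest tested probe set stood for a gene in lists. Named were all members, and of the related genes each called one and, in a role without a call, the one with the smallest p. Others in the text (Txnrd1, Txnrd2, Txn2, Srxn1, Txnip, Sod1, Ccs, Gpx1, Gpx4, Pdia6, Ero1a, Erp29, Qsox1, Uox, Acox2, Hao2) were chosen after their values were seen, for their link to a member or their p. The members and lists were chosen with earlier results of these data known. The fit was tested on simulated data with independent noise per probe set and added differences larger than those of any member. That run does not show how well differences as small as those of the members are found. Figures were drawn with matplotlib 3.10.9.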

Additional observations from a re-analysis of the deposited data

How the results depend on the processing

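No paired analysis was possible because the groups share no replicate number. The 13 member probe sets held 0 calls in the main setting, 1 after quantile normalization and 1 at a threshold of 0.10 (Prdx4 1416167_at both times), and 0 under every other alternative, the probe sets of Prdx1 and Gm21399 (an alternative chosen after seeing the data) included. Of the 13, 10 kept their sign under all alternatives of the single probe sets (up to 15). The changes of the signal filter, eBayes without the trend and robust eBayes leave a log2 difference as it is, so they could not turn a sign. With 1 sample left out, Cat 1416429_a_at ranged from -0.15 (without WT5) to 0.093 (without WT4, a turned sign), Prdx4 1416166_a_at from -0.0725 (without WT5, turned) to 0.29, and Prdx4 1435731_x_at from -0.0722 (without WT5, turned, as without KO903) to 0.17. Of the 5 shared by Prdx1 and Gm21399, 3 turned with 1 sample left out and after centring of arrays: 1433866_x_at ranged from -0.071 to 0.11 and was -0.0124 after centring, 1434731_x_at from -0.19 to 0.27 with -0.003, and 1437014_x_at from -0.057 to 0.077 with -0.0242. The compartment medians with 1 sample left out were 0.16 to 0.23 for the cytosol, 0.31 to 0.42 for the ER, -0.22 to -0.18 for mitochondria and -0.21 to -0.10 for the peroxisome; the mean over probe sets gave 0.19 for the ER and -0.0937 for the peroxisome, against 0.36 and -0.15 in the main setting. Calls among related genes were 1 in the main setting, 2 at a minimum signal of 200, with robust eBayes and with array weights, 3 with the mean over probe sets, 4 at a threshold of 0.10, and 1 to 4 with 1 sample left out (4 without WT5: Xdh, Gsr, Txnip and Acox2). Xdh was called under every alternative. Calls over all probe sets were 440 in the main setting and 193, 175, 228, 254, 475 and 272 without KO903, KO904, KO905, WT4, WT5 and WT6. Moving Prdx5 to the peroxisome was not run, since Prdx5 was not analysed here. With 3 arrays per group, differences as small as those of most members lie within the intervals. The cause of these changes was not tested.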
